A study of Rattus norvegicus with 20 samples.

Results

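The Wnt ligands, their receptors, secreted inhibitors and intracellular transducers were followed in rat foetal testis as 46 genes, represented by 60 probes out of 35752 gene names and 41012 probes on the array. Members were taken by gene name alone: 18 Wnt ligands, the agonist Rspo1, 10 receptors or coreceptors (Frizzled genes, Lrp5 and Lrp6), 9 inhibitors (Sfrp, Frzb, Dkk and Wif1 genes) and 8 intracellular components (Apc, Axin, Ctnnb1, Dvl, Lef1 and Tcf7 genes). Pregnant Han Wistar dams had been gavaged daily on gestation days 12 to 19 with 500 mg/kg of a test compound or with the corn oil vehicle alone (Control). The compounds were DEHP, the diester di(2-ethylhexyl) phthalate; MEHP, which is the matching monoester mono(2-ethylhexyl) phthalate; TOTM, the triester tris(2-ethylhexyl) trimellitate; and 1 known here by its label EHO. The same mass was given of each, so molar doses differed. Each of 20 1-colour arrays, 4 per group, held RNA from a pool of testes of at least 3 male pups (6 testes) of 1 litter, so p-values measure the spread between litter pools.

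Wnt proteins are secreted lipid-modified ligands that bind Frizzled receptors, with Lrp5 or Lrp6 as coreceptors in the canonical branch. In that branch the destruction complex of Apc and Axin stops degrading beta-catenin (Ctnnb1), which then acts with Tcf and Lef factors on target genes. Secreted Frizzled-related proteins and Wif1 bind the ligands, while Dkk1 blocks the coreceptors. In mouse gonads Wnt4 and Rspo1 promote the ovarian fate, and canonical Wnt activity is held low in the developing testis.

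Letters recognised by Tcf and Lef factors were looked for in the promoters, because a few Wnt genes are themselves textbook targets of the pathway. RefSeq promoters (build GRCr8, 250 bases before to 50 after the start) were found for 33 of the 46 members, and 4 motifs were searched on both strands: first CTTTGAA, next CTTTGAT, also CTTTGTA, finally CTTTGTT. No pair of them can start at the same base of a strand. At least 1 of them stood in 7 of the 33 member promoters (21.2%) and in 17.1% of all 33469 promoters of that length. Axin2 and Dkk1, which are feedback inhibitors induced by canonical Wnt signalling in other tissues, had 2 matches each. Their promoters and that of Wnt11, the ligand with the largest rise described below, are shown with the motif letters in capitals, and the Wnt11 window held none of them. The windows are chr10:94398535-94398834 on the plus strand for Axin2, chr1:237798601-237798900 on the minus strand for Dkk1 and chr1:162549110-162549409 on the plus strand for Wnt11. A match is a run of letters and not a known binding site, and its absence says nothing of the factors.
Axin2: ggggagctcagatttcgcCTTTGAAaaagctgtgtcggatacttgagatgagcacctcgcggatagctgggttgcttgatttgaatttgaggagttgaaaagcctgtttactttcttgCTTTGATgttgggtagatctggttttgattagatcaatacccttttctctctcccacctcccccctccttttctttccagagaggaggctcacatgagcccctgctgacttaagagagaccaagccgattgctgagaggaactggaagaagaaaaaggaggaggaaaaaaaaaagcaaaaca
Dkk1: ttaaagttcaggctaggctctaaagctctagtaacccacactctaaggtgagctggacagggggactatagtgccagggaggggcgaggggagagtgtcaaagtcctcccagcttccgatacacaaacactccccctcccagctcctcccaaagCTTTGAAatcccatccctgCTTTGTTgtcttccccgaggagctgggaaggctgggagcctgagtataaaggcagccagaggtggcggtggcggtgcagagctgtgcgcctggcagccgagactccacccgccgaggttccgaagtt
Wnt11: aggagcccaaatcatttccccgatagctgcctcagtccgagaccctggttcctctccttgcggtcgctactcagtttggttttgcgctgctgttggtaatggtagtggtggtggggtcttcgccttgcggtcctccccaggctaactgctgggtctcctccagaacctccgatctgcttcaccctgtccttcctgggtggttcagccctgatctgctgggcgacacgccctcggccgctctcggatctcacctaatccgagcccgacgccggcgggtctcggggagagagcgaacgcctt

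Some arrays stood apart, and this touches every result on the pathway. Each group was hybridised on a slide of its own, so an effect of the slide and one of the compound cannot be told apart. MEHP arrays 1 and 2 differed by only 0.791 times the spread of repeated spots. They differed by less than the sampling noise, were averaged and count as 1 sample (n = 3 for MEHP), whereas the median over same-group pairs was 2.32 times that noise. Control 2 and MEHP 3 differed by 1.29 times that noise, while Control 2 differed from the other controls by 4.02 to 4.49 times and MEHP 3 from the other MEHP arrays by 3.91 to 4.79 times. MEHP 4 and DEHP 3, each the nearest array of the other, differed by 1.38 times that noise. The closest same-group pair after MEHP 1 and 2 differed by 1.46 times. The share of probes well above background was 45.4% on EHO 1 and 49.8% on EHO 2, 62.0% and 62.9% on EHO 3 and 4, and 63.4% to 79.4% on the other 16 arrays. Sertoli cell genes (13 with a value on every array) summed to between 118 and 152 times the array's 75th percentile with EHO and between 115 and 140 times in control testes, and all 13 were well above background on every array outside the EHO group (10 on all EHO arrays).

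Most members were measurable in foetal testis. Of the 46 genes 42 passed the filter, which asked that all arrays of some group show the probe well above background, and 40 of these 42 were well above background on all DEHP and control arrays. The ligand Wnt10b and the receptors Fzd4, Fzd6 and Fzd7 did not pass. Wnt10b and Fzd4 were not well above background on any of the 20 arrays, Fzd6 was on 1 control array, and Fzd7 on 2 TOTM arrays and 1 control array. With EHO the picture was thinner: 28 of the 42 tested genes were measured well above background on all EHO and control arrays. Wnt8a and Wnt9b were each measured on 1 of 4 EHO arrays, and Wnt3a, Wnt7b, Wnt8b, Fzd3, Dkk1, Sfrp5 and Dvl3 on 2 each.

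**Figure D1:**
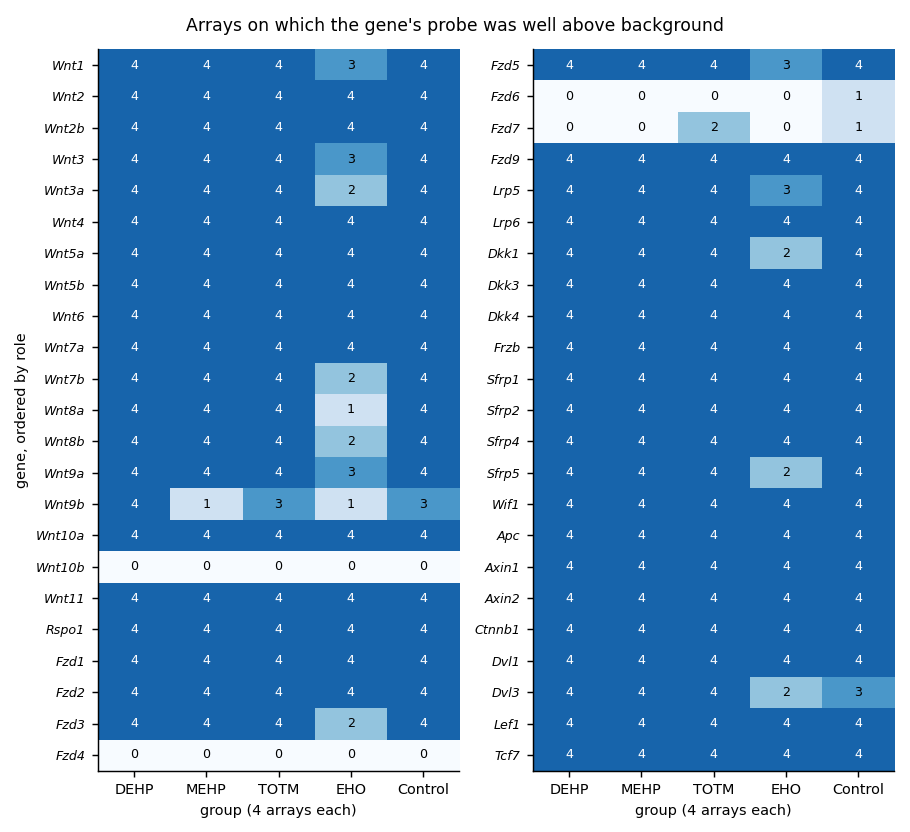
Number of arrays, out of 4 in each group, on which the probe of each of the 46 genes was well above background. Wnt10b and Fzd4 are at 0 in every group, and among the 42 tested genes most values below 4 stand in the EHO column.

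No member of the pathway changed with DEHP, MEHP or TOTM at an adjusted p under 0.05 (limma, Benjamini-Hochberg over 23903 genes), and none of the 42 had an unadjusted p under 0.05 in any of these comparisons with control, where 2.47% (DEHP), 5.32% (MEHP) and 8.2% (TOTM) of all genes did. Few genes of any kind were called there: 0.00418% of all genes with DEHP, 0.945% with MEHP and 0.00837% with TOTM. The median log2 fold change of the members was −0.04 with DEHP, −0.13 with MEHP and −0.03 with TOTM, beside −0.03, −0.06 and −0.04 over all genes.

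With EHO 11 of the 42 members were called against control, 4 higher (Wnt11, Wnt5b, Sfrp1 and Fzd1) and 7 lower (Wnt8a, Wnt3a, Wnt7b, Wnt8b, Apc, Rspo1 and Frzb). This is 26.2% of the members, and 24.8% of all genes were called in the same comparison, 6.45% higher and 18.3% lower. The share of called members is near that background. The split depended on the scaling: with arrays scaled to their medians 15 members were higher and 4 lower (34.4% of all genes were called), with the median of all genes at 0.351. The count also rested on single arrays: it was 0 without EHO 2 (4.25% of all genes), 1 without EHO 1 (3.34%) or Control 1 (2.9%), 18 without EHO 4 (43.6%), and 0 when only the EHO and control arrays were fitted (0.0126%). Among genes well above background on each EHO and control array, 7 of 28 members passed (4 higher, 3 lower), beside 15.8% of all such genes (10.1% higher, 5.73% lower). The median log2 fold change was −0.14 over the members and −0.18 over all genes. Calls of single genes were also lost under alternative settings. Of 38 per gene, this was so in 21 for Fzd1, 20 for Rspo1, 12 for Wnt5b and 12 for Frzb. Apc lost its call in 11, Sfrp1 in 7 and Wnt11 in 4. Of 36 per gene, it was lost in 21 for Wnt8b, 10 for Wnt3a, 9 for Wnt7b and 7 for Wnt8a. Normexp background correction, quantile normalization and the percentile over common probes each left Fzd1 and Wnt5b uncalled. Normexp and median scaling did so for Rspo1 and Frzb.

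**Figure D2:**
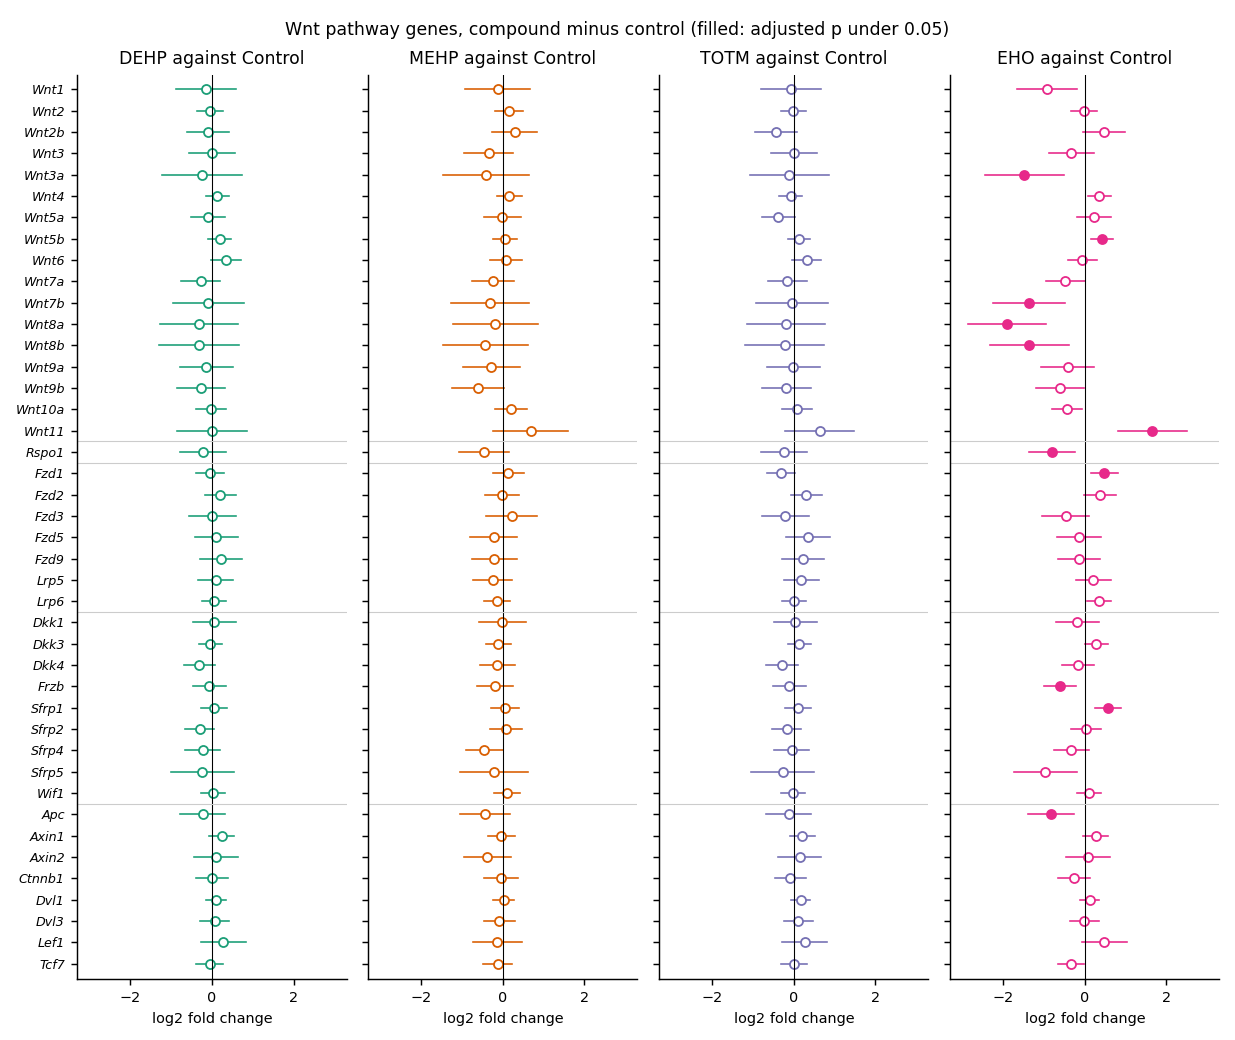
Log2 fold change against control (points) with its 95% interval (bars) for the 42 tested genes, in blocks from top to bottom of ligands, Rspo1, receptors, inhibitors and intracellular components. Filled points, which passed at an adjusted p under 0.05, appear with EHO only, 4 to the right of 0 and 7 to the left; whether EHO differs from the other compounds is tested in the pairwise comparisons.

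Among the ligands Wnt11, which in other tissues acts mainly without beta-catenin in cell movement and in branching of epithelia, had the largest rise. Its log2 level, relative to the array's 75th percentile, was 3.72, 4.24, 3.95 and 4.07 on the EHO arrays, against 2.86, 1.29, 2.96 and 2.26 on the control arrays. Every EHO array lay above every control array. The mean was 4.0 ± 0.22 with EHO and 2.34 ± 0.77 in control testes (SD, n = 4 each), a log2 fold change of 1.65 ± 0.40 (SE; 95% interval 0.80 to 2.51; limma adjusted p = 0.0199). Control 2 was the lowest of the 20 arrays, and without Control 2 and MEHP 3 the difference was 1.30 ± 0.24 (adjusted p = 0.00914). Without EHO 2 it was 1.57 ± 0.44 and missed the threshold (adjusted p = 0.0561).

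Wnt11 was also high on some arrays of the other compounds. It lay at 3.89, 3.99, 1.75 and 3.39 with MEHP, the low value being MEHP 3, and at 3.21, 2.92, 2.87 and 2.88 with TOTM. The DEHP arrays were at 1.73, 2.29, 2.58 and 2.78, within the range of the controls. The log2 fold change against control was 0.69 ± 0.44 with MEHP (n = 3, 95% interval −0.23 to 1.61), 0.63 ± 0.40 with TOTM (−0.22 to 1.48) and 0.00 ± 0.40 with DEHP (−0.85 to 0.85), none of which passed. The intervals with MEHP and TOTM hold 0 as well as rises above 1 on the log2 scale.

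The Wnt11 result rests on 1 of 2 probes. The tested probe lies at chr1:156122373-156122432 (build rn4, as the array files give it). A second probe at chr1:156138185-156138244, which the files describe as a Wnt-11 fragment but do not name by symbol, was well above background on all 20 arrays. It read −0.40, −0.32, −0.56 and −0.25 with EHO, against −0.51, −0.64, −0.38 and −0.42 in control testes, and the groups overlapped. Its log2 fold change was 0.10 ± 0.15 (limma adjusted p = 0.602), so the rise was not seen there. No annotation of rn4 was used here, so the exons or transcripts under the 2 probes are not given.

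**Figure D3:**
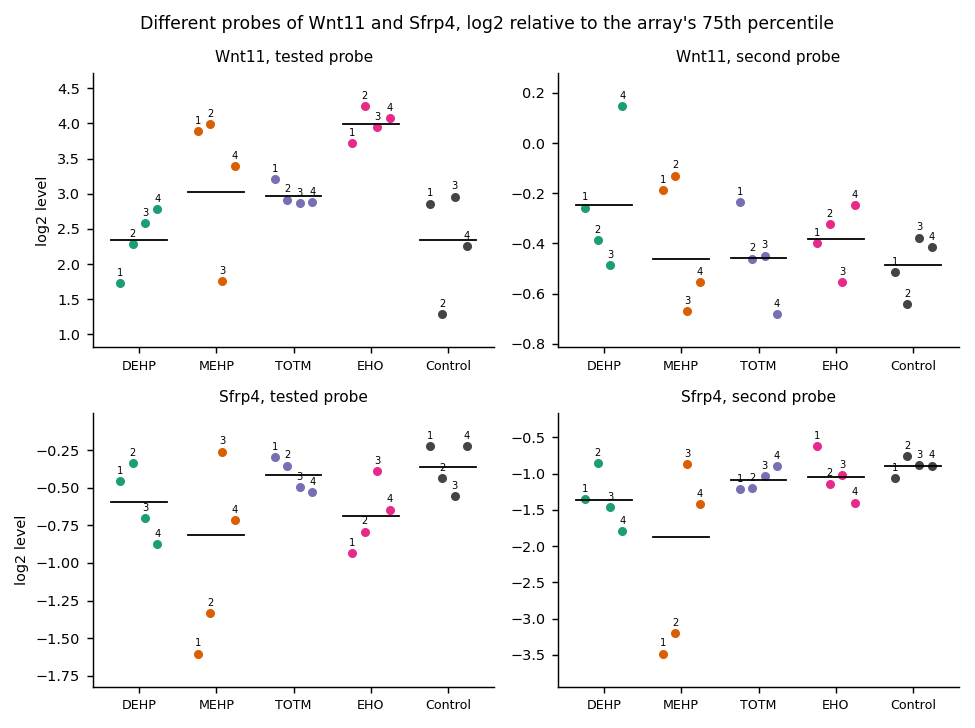
Log2 level on each array for 2 probes of Wnt11 (top) and 2 of Sfrp4 (bottom), by group; numbers are replicate arrays and lines are group means, with MEHP 1 and 2 averaged first. The tested Wnt11 probe is high with EHO and on MEHP 1, 2 and 4 and the second probe is not, while both Sfrp4 probes are low on MEHP 1 and 2.

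Wnt5b, a ligand of the noncanonical branch, read 3.74, 3.53, 3.34 and 3.57 with EHO, against 3.01, 2.98, 3.31 and 3.22 in control testes. The groups did not overlap, and the log2 fold change was 0.41 ± 0.13 (adjusted p = 0.0375). Without EHO 1 and 2 it was 0.32 (adjusted p = 0.358). A second Wnt5b probe, at chr4:155754667-155754726 (rn4), averaged 0.22 ± 0.13 with EHO and −0.01 ± 0.50 in control testes (SD, n = 4 each), and its groups overlapped, with Control 2 the lowest control array.

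Wnt4, the ligand of ovarian differentiation and steroidogenic cell migration, was 2.08, 1.91, 1.93 and 2.25 with EHO, against 1.64, 1.63, 1.78 and 1.70 in control testes. All EHO arrays were above all controls, yet the log2 fold change of 0.36 ± 0.13 missed the threshold (95% interval 0.08 to 0.64; adjusted p = 0.0555). With the other compounds Wnt4 was 1.82 ± 0.11 (DEHP, n = 4), 1.85 ± 0.26 (MEHP, n = 3) and 1.61 ± 0.24 (TOTM, n = 4), and the controls were at 1.69 ± 0.07 (n = 4). Its probe lies at chr5:156082786-156082845 (rn4). Wnt4 therefore gave no call with any compound against control, and with EHO a value on the edge of one.

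The 4 ligands that were lower with EHO, Wnt3a, Wnt7b, Wnt8a and Wnt8b, all had dim probes. Wnt3a, a canonical ligand of early axis formation, was −4.64, −3.52, −1.83 and −1.76 with EHO, against −1.06, −1.89, −1.66 and −1.20 in control testes. Wnt8a, another canonical ligand of the early embryo, was −4.66, −4.70, −2.87 and −2.11 with EHO, against −1.33, −2.19, −2.10 and −1.09. The low values of both genes stood on EHO 1 and 2, the arrays with the fewest probes above background, whereas EHO 3 and 4 were within the control range for Wnt3a, and EHO 4 was for Wnt8a.

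Because these probes were not well above background on all EHO arrays, their folds are lower bounds: Wnt8a was at least 1.92-fold lower (adjusted p = 0.0186), Wnt3a at least 1.77-fold (0.0375), Wnt7b at least 1.51-fold (0.0356) and Wnt8b at least 2.10-fold (0.0448). A bound sets the mean of the brighter group against, on each dim array, the higher of the probe's own signal and the lowest signal well above background. It concerns the means and takes no account of their spread. The adjusted p-values are from limma on the signals without this floor, so they do not test the bounds. Without EHO 1 and 2 none of the 4 passed: the log2 fold change was −0.34 ± 0.23 for Wnt3a, −0.33 ± 0.24 for Wnt7b and −0.21 ± 0.23 for Wnt8b (adjusted p from 0.535 to 0.718). For Wnt8a, not well above background on 1 of the remaining EHO arrays, no size is given (adjusted p = 0.238). Over the same step Wnt11 stayed at 1.67 ± 0.49, although its adjusted p became 0.118 with 2 EHO arrays left.

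The same split ran through the family. On both EHO 1 and EHO 2, 14 of the 42 members lay below all 18 other arrays, among them Wnt1, Wnt3, Wnt7a, Wnt9b, Wnt10a, Dkk1, Sfrp5 and Tcf7, and so did 33.8% of all genes. Sfrp1 alone lay above all others on both arrays, beside 4.83% of all genes. The members' share below is close to that of the array as a whole. The part of signal on these arrays in the lower values was not tested beyond leaving the arrays out.

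**Figure D4:**
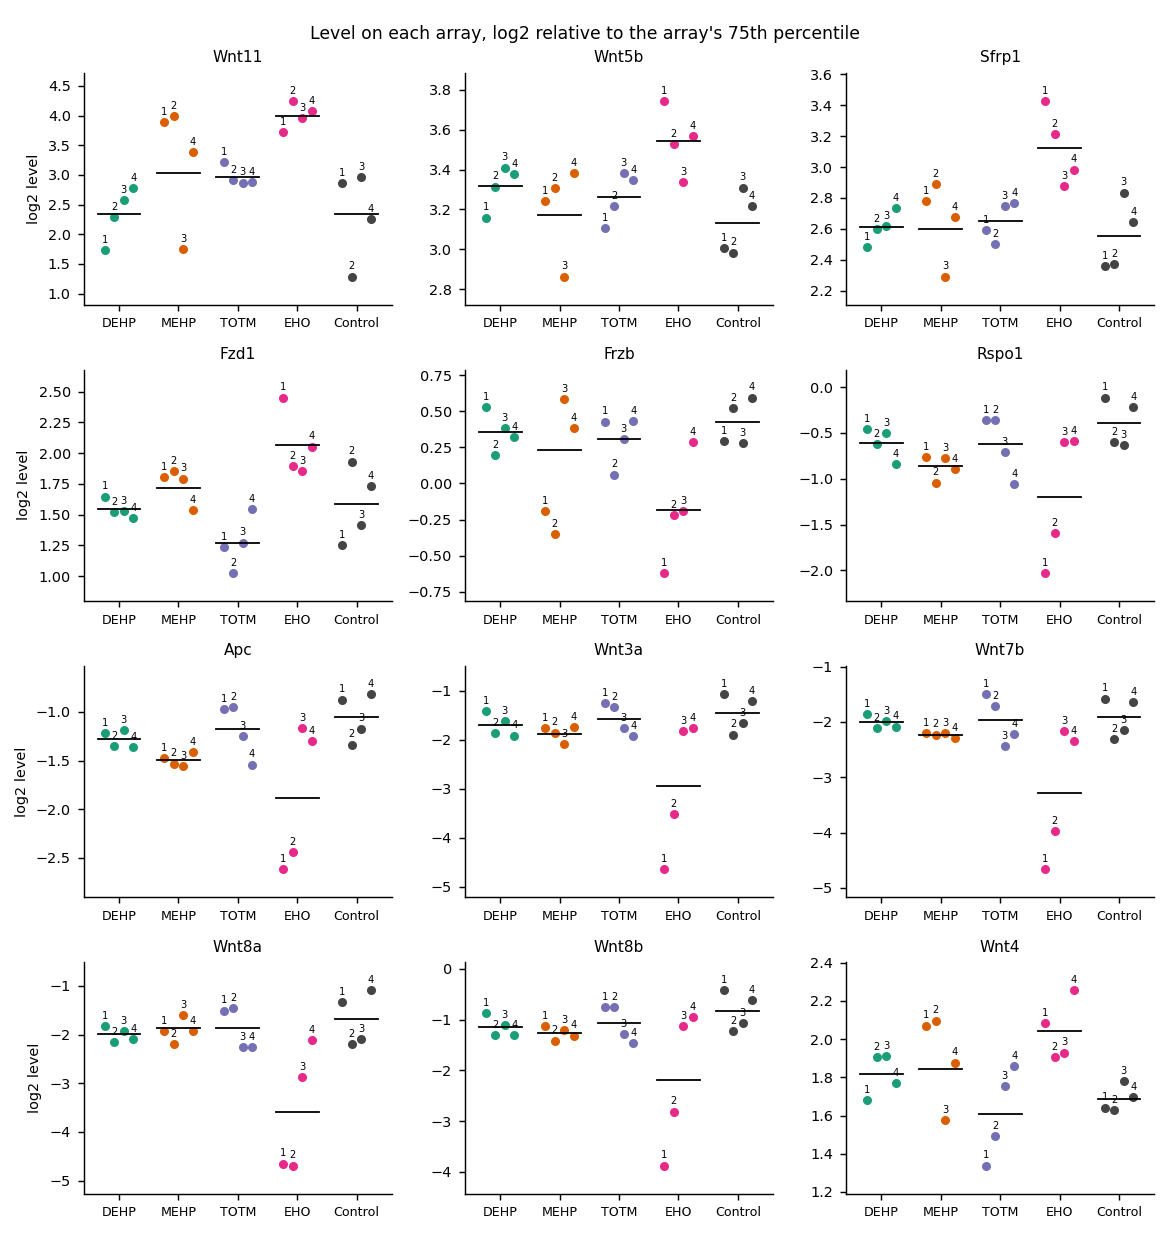
Log2 level on each array of the 11 genes called between EHO and control, with Wnt4 added; numbers are replicate arrays and lines are group means, with MEHP 1 and 2 averaged first. Wnt11 is high on all 4 EHO arrays, whereas Wnt3a, Wnt7b, Wnt8a, Wnt8b, Apc and Rspo1 have their lowest values on EHO 1 and 2.

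Of the other ligands, Wnt6, which acts in epithelial and mesenchymal exchange, was highest with DEHP at 2.33, 2.31, 2.41 and 2.56, against 1.94, 1.73, 2.24 and 2.28 in control testes. The groups did not overlap, but this smallest p of any member with DEHP did not pass (log2 fold change 0.35 ± 0.17; 95% interval −0.01 to 0.72). Wnt5a, a noncanonical ligand of mesenchyme, was −1.17, −1.21, −1.16 and −0.77 with TOTM, against −1.03, −0.38, −0.85 and −0.53 in control testes, and the groups overlapped (−0.38 ± 0.20). Wnt9b, a duct ligand that induces kidney tubules, was well above background on 1 of 4 MEHP arrays and 3 of 4 control arrays. It read −2.93, −3.04, −3.39 and −3.10 with MEHP, against −2.17, −2.88, −2.43 and −2.70 in control testes. With dim MEHP arrays set as for the bounds above, the means differed 1.49-fold. This fold has no interval, and Wnt9b was not called (limma adjusted p = 0.976). Wnt2 had a narrow range, from −2.40 to −1.68 over the 20 arrays.

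Rspo1, the agonist that stabilises Wnt receptors and drives ovarian differentiation, was lower with EHO. It read −2.03, −1.59, −0.60 and −0.59 with EHO, against −0.12, −0.60, −0.63 and −0.22 in control testes. EHO 1 and 2 were below every other array, and EHO 3 and 4 were within the control range. The log2 fold change was −0.81 ± 0.27 (adjusted p = 0.042) and −0.20 ± 0.20 without EHO 1 and 2 (adjusted p = 0.664). Rspo1 was −0.86 ± 0.07 with MEHP (n = 3), −0.61 ± 0.17 with DEHP and −0.62 ± 0.33 with TOTM (n = 4 each), against −0.39 ± 0.26 in control testes (n = 4), none of them called.

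Of the 7 receptors tested, Fzd1 was called with EHO and 6 were not. Fzd1, a Frizzled receptor that can signal through beta-catenin, was 2.45, 1.89, 1.85 and 2.05 with EHO, against 1.25, 1.93, 1.41 and 1.73 in control testes. The groups overlapped at Control 2, and the log2 fold change was 0.48 ± 0.16 (adjusted p = 0.0442), and 0.35 without EHO 1 (adjusted p = 0.149). Fzd1 lost its call in 21 of 38 alternative settings. TOTM arrays lay on the other side, at 1.24, 1.03, 1.27 and 1.55 (−0.31 ± 0.16 against control, adjusted p = 0.624). Lrp6, the main canonical coreceptor, was −0.65, −1.15, −0.93 and −1.37 with EHO, against −1.40, −1.53, −1.41 and −1.15 in control testes (0.35 ± 0.14, adjusted p = 0.0677), and the groups overlapped.

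Secreted inhibitors moved in both directions with EHO: Sfrp1 was higher, Frzb lower, and the other 7 were not called. Sfrp1, which binds Wnt ligands and is known in mouse gonad development, was 3.43, 3.21, 2.88 and 2.98 with EHO, against 2.36, 2.37, 2.83 and 2.64 in control testes. No EHO array reached down to the controls, although EHO 3 and Control 3 lay close together. Its log2 fold change was 0.57 ± 0.15 (95% interval 0.26 to 0.89; adjusted p = 0.0243), and without EHO 1 and 2 it was 0.38 ± 0.17 (adjusted p = 0.303). Its probe lies at chr16:73031711-73031770 (rn4).

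Frzb, also a Wnt-binding decoy and first known from cartilage, was −0.62, −0.22, −0.19 and 0.29 with EHO, against 0.29, 0.52, 0.28 and 0.59 in control testes. EHO 4 reached into the control range, and the log2 fold change was −0.61 ± 0.19 (adjusted p = 0.0377), and −0.37 ± 0.21 without EHO 1 and 2 (adjusted p = 0.427). MEHP 1 and 2 were low too, at −0.19 and −0.35, while MEHP 3 and 4 were at 0.58 and 0.38. DEHP arrays ran from 0.20 to 0.53 and TOTM arrays from 0.06 to 0.43.

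Sfrp4, a further decoy receptor, was split within MEHP. It was −1.60 and −1.33 on MEHP 1 and 2, below the other 18 arrays, and −0.26 and −0.72 on MEHP 3 and 4, against −0.22, −0.44, −0.56 and −0.22 in control testes. Of its 2 other probes 1 was not well above background on any array. The other, at chr17:53121979-53122038 (rn4), was so on 18 arrays and read −3.48 and −3.20 on MEHP 1 and 2, −0.87 and −1.42 on MEHP 3 and 4, against −1.06, −0.76, −0.89 and −0.89 in control testes. Both measured probes show the same split. The log2 fold change of the tested probe was −0.45 ± 0.22 over the 3 MEHP samples (adjusted p = 0.968). It was −1.11 ± 0.23 (adjusted p = 0.0427) with MEHP 1 and 2 as the only MEHP sample, where that lone sample is assumed to vary like the other groups.

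The authors' deposited table, which lists probes with p-values under 0.01, has 8 member probes for MEHP out of 3827 listed. In that table Sfrp4 has signed fold changes of −2.10 and −4.80 at its 2 probes, Frzb −1.60, Ctnnb1 −1.50 and −1.80, Wnt11 2.80, Wnt4 1.30 and Dkk3 1.30. For EHO the authors' deposited table lists 9 member probes of 4210, with Wnt11 at 2.74, Lef1 1.86, Lrp5 1.70, Dkk3 1.61, Lrp6 1.59, Sfrp1 1.43, Wnt5b 1.29, Frzb −1.48 and Ctnnb1 −1.34. It lists Fzd1 (−1.28) as the member among 3298 probes for TOTM and has no member among 1004 probes for DEHP. Here none of the 6 genes it lists for MEHP was called with MEHP. Lef1, Lrp5, Dkk3, Lrp6 and Ctnnb1 with EHO and Fzd1 with TOTM were not called either. A call here is at an adjusted p under 0.05, an unlike threshold. Lef1, Dkk3 and Lrp6 were called with EHO under normexp, quantile normalization and median scaling, and Ctnnb1 under normexp. MEHP 1 and 2 as the only MEHP sample gave log2 fold changes of −1.11 for Sfrp4, −0.7 for Frzb and −0.48 for Ctnnb1. They were 1.6 for Wnt11, 0.4 for Wnt4 and 0.24 for Dkk3. The way the authors' fold changes were averaged is not given in the sources used here.

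None of the other inhibitors was called. Sfrp5, a secreted Wnt antagonist, was −4.58, −3.52, −2.37 and −2.34 with EHO, against −2.02, −2.62, −2.37 and −1.93 in control testes. Low values stood on EHO 1 and 2, the groups overlapped, and 2 of 4 EHO arrays were well above background. With dim EHO arrays set as for the bounds above, the means differed 1.25-fold. This fold has no interval, and Sfrp5 was not called (limma adjusted p = 0.056). Dkk3, a divergent Dickkopf protein found in many mesenchymal tissues, was −1.27, −1.36, −1.31 and −1.28 with EHO, against −1.40, −1.81, −1.47 and −1.65 in control testes (0.28 ± 0.13, adjusted p = 0.112), with all EHO arrays above all controls. Wif1, which binds Wnt ligands outside the cell, ranged from −1.43 to −0.76 over the 20 arrays and was at 0.10 ± 0.14 with EHO. Sfrp2 had its lowest value, −1.74, on DEHP 4 (−0.30 ± 0.17 with DEHP), and Dkk4 was lower on average with DEHP (−0.31 ± 0.18), both short of a call.

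Among the intracellular components Apc, the scaffold of the destruction complex, was the only called gene of 8 with EHO. It was −2.62, −2.44, −1.16 and −1.30 with EHO, against −0.87, −1.34, −1.17 and −0.82 in control testes, again low on EHO 1 and 2 only. The log2 fold change was −0.83 ± 0.26 (adjusted p = 0.039), and −0.18 ± 0.17 without those arrays (adjusted p = 0.66). A second Apc probe, at chr18:26739398-26740136 (rn4), averaged −1.96 ± 0.25 with EHO and −2.16 ± 0.31 in control testes (SD, n = 4 each), so the fall was not seen there.

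Ctnnb1, which encodes beta-catenin itself, was 2.53, 2.40, 2.40 and 2.37 with EHO, against 2.28, 3.21, 2.50 and 2.77 in control testes (−0.27 ± 0.18, adjusted p = 0.269). A second Ctnnb1 probe, at chr8:125978680-125978871 (rn4), averaged −0.04 ± 0.25 with EHO and 0.55 ± 0.57 in control testes (SD, n = 4 each). Its groups overlapped, with Control 2 the highest control array at 1.33. Axin2, the feedback target shown above, was −1.22, −0.99, −0.44 and −0.62 with EHO, against −0.44, −1.49, −0.83 and −0.83 in control testes (0.08 ± 0.25; 95% interval −0.45 to 0.61). Lef1, the nuclear partner of beta-catenin and also a target gene, was −1.56, −1.17, −0.86 and −1.37 with EHO, against −1.46, −2.45, −1.23 and −1.72 in control testes (0.47 ± 0.26, adjusted p = 0.165). In each of these 3 genes Control 2 was the control array farthest from the rest. Without Control 2 the log2 fold change was −0.09 ± 0.17 for Ctnnb1, −0.12 ± 0.25 for Axin2, which turned its sign, and 0.23 ± 0.24 for Lef1.

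Control 2 and MEHP 3 lay outside the other arrays together for some members. On both arrays 7 of the 42 members lay below the other 18 arrays (Axin1, Axin2, Dkk3, Fzd2, Fzd5, Lef1 and Wnt5b) and Ctnnb1 lay above them, beside 7.95% of all genes below and 10.5% above. Lef1 was −2.45 on Control 2 and −2.52 on MEHP 3, with the other arrays between −1.81 and −0.86. Ctnnb1 was 3.21 and 3.09 on the same arrays, with the others between 2.20 and 2.80. Their part in the comparisons with control was measured by leaving both out: 9 of the 42 members were then called with EHO (17.5% of all genes were), with Frzb, Rspo1 and Wnt8b no longer among them and Wnt2b added, and 0 with MEHP, DEHP or TOTM.

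**Figure D5:**
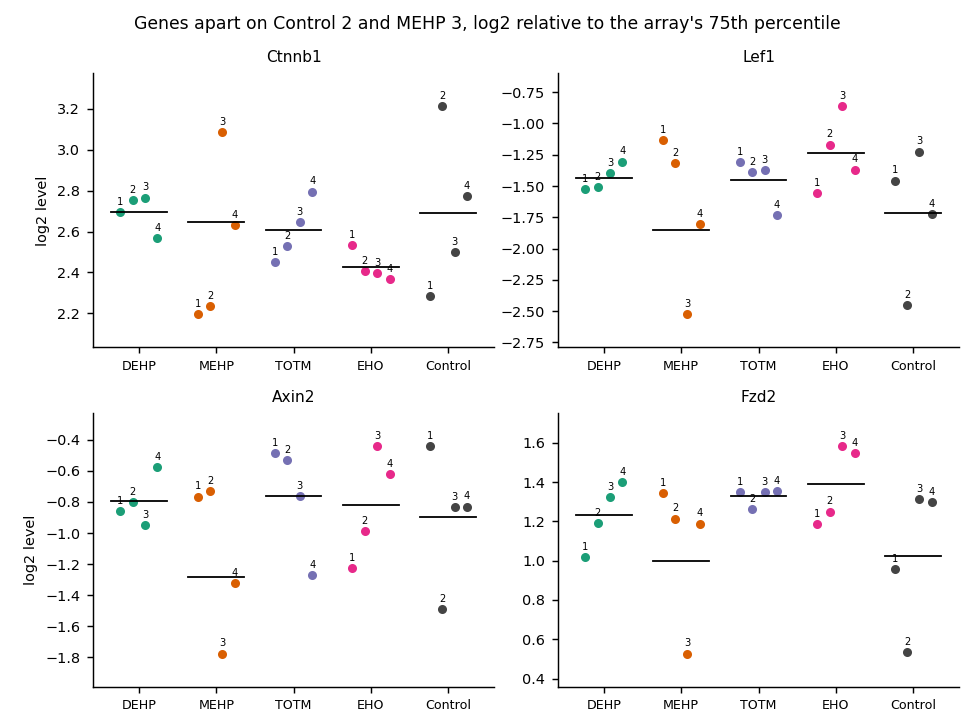
Log2 level on each array of Ctnnb1, Lef1, Axin2 and Fzd2, chosen after their values were seen; numbers are replicate arrays and lines are group means, with MEHP 1 and 2 averaged first. Control 2 and MEHP 3 lie above all other arrays for Ctnnb1 and below them for the other 3 genes.

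In the 6 comparisons between compounds, members were called only where EHO was one of the pair. EHO against TOTM gave 9 of 42 members (21.6% of all genes were called): Wnt2b, Wnt4, Wnt5a, Fzd1 and Sfrp1 were higher with EHO, and Wnt3a, Wnt7b, Wnt8a and Wnt10a lower. Fzd1 differed most firmly (0.79 ± 0.16, adjusted p = 0.00544), and for this gene the EHO arrays given above all lay above the TOTM arrays. Wnt2b, a canonical ligand of mesenchyme, was 1.63, 1.14, 0.67 and 1.09 with EHO, against 0.09, 0.19, 0.37 and 0.22 with TOTM (0.92 ± 0.24, adjusted p = 0.0204). Wnt4 was 0.43 ± 0.13 higher with EHO than with TOTM (adjusted p = 0.0362), Wnt5a 0.61 ± 0.20 (0.0405) and Sfrp1 0.47 ± 0.15 (0.0385). For Wnt5a the groups overlapped, with EHO 2 at −0.78 and TOTM 4 at −0.77, and EHO 1 was the highest array at 0.09. Wnt10a was 0.51 ± 0.17 lower on the log2 scale (adjusted p = 0.0482).

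EHO against DEHP gave 3 of 42 members, beside 6.62% of all genes. Wnt11 was higher with EHO by 1.65 ± 0.40 (adjusted p = 0.0265) and Sfrp1 by 0.52 ± 0.15 (0.0479). Wnt8a was lower (0.0476), with a bound of 1.54-fold that this p does not test. EHO against MEHP gave none (0.285% of all genes), although 12 members had an unadjusted p under 0.05 (23.8% of all genes). There Wnt11 differed by 0.97 ± 0.44 (95% interval 0.05 to 1.89; adjusted p = 0.197) and Sfrp1 by 0.52 ± 0.16 (0.19 to 0.86; adjusted p = 0.111), so neither a difference nor its absence was shown between these compounds.

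The monoester and the diester, MEHP and DEHP, gave no called member (1.12% of all genes), and no member had an unadjusted p under 0.05 (5.57% of all genes did). MEHP 4 lay closer to DEHP 3 than to any other MEHP array. The part of this closeness in the comparison was not tested beyond leaving out 1 array at a time, which also gave 0 members. Wnt11 differed by 0.68 ± 0.44 (95% interval −0.24 to 1.60), Axin2 by −0.49 ± 0.27 (−1.06 to 0.09) and Wnt4 by 0.03 ± 0.14 (−0.27 to 0.33). TOTM, a trimellitate triester, and DEHP also gave none (0% of all genes). The differences were 0.62 ± 0.40 for Wnt11 (−0.23 to 1.48), −0.27 ± 0.16 for Fzd1 (−0.61 to 0.07) and −0.21 ± 0.13 for Wnt4 (−0.49 to 0.08). TOTM against MEHP gave none (1.52% of all genes), with 3 members at an unadjusted p under 0.05 (13.9% of all genes), led by Wnt2b (−0.73 ± 0.26, adjusted p = 0.225). The Wnt11 intervals hold differences above 1 on the log2 scale, so a p that missed the threshold does not show that the compounds act alike.

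Other genes of the pathway were read from 2 lists. None of the 40 tested genes for secretion, further receptors and signal transduction was called with DEHP, MEHP or TOTM. With EHO 7 of them were higher and 5 lower, where 24.8% of all genes were called (6.45% higher, 18.3% lower). The list was led by Csnk1a1, a kinase that marks beta-catenin for degradation, at 4.06, 3.50, 3.49 and 3.72 with EHO, against 2.68, 3.04, 2.88 and 2.51 in control testes (0.91 ± 0.15, adjusted p = 0.00361). Gsk3b, the second kinase of the complex, was higher by 0.56 ± 0.14 and Jup, a relative of beta-catenin at cell junctions, by 0.72 ± 0.21, while Sost, which blocks the coreceptors, was lower but dim. The list's median was −0.07.

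Known targets of canonical signalling gave 3 higher and 2 lower of 26 tested with EHO, beside 24.8% of all genes, and none with DEHP, MEHP or TOTM, where at most 0.945% of all genes were called. Id2, an inhibitor of helix-loop-helix factors, was 3.47, 2.73, 2.55 and 2.80 with EHO, against 1.39, 2.32, 1.48 and 2.02 in control testes (1.08 ± 0.27, adjusted p = 0.0211). Bambi, a decoy receptor of the TGF-beta family, was higher by 0.52 ± 0.13 and Jun, an early response factor, by 0.50 ± 0.15, whereas Sox17 was lower by 0.54 ± 0.18, with −2.46 and −2.40 on EHO 1 and 2 and −1.61 and −1.64 on EHO 3 and 4, against −1.60 to −1.39 in control testes, and Mmp7, a protease, was lower but dim. The median over the 26 targets was −0.06, and Axin2 and Lef1, given above, were not called. Of 6 measured genes of the foetal ovary none was called higher with any compound, beside the same shares of all genes as for the targets. Irx3 was called lower with EHO, where it was dim on some arrays. Irx3 read −3.51, −1.91, −0.79 and −0.67 with EHO, against −0.21, −0.61, −0.64 and 0.10 in control testes, so the lowest values stood on EHO 1 and 2.

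Summed levels of marker genes are given beside the Wnt11, Wnt5b and Sfrp1 values. Peritubular and interstitial genes (10 measured) summed to between 50.8 and 75.8 times the 75th percentile with EHO and between 38.9 and 52.9 times in control testes, and the ranges overlapped. Of these 10, Lum, Des and Nr2f2 were called higher and 7 were not called, where 24.8% of all genes were called (6.45% higher, 18.3% lower). All 10 were well above background on each EHO and control array, and 10.1% of all such genes were called higher. Leydig cell genes (9 summed) lay between 91.1 and 120 times the 75th percentile with DEHP, 50.9 and 233 with MEHP, 156 and 202 with TOTM, 107 and 167 with EHO, and 175 and 234 in control testes. Cyp17a1 and Insl3, among the brightest of the list, are not in the sum. Their spots were set aside as outliers on all control arrays for Cyp17a1 and on Control 2 and 3 for Insl3. The MEHP arrays were split: Star, 1 of the 9, read −0.10, −0.03, 3.21 and 1.71 on MEHP 1 to 4. MEHP 3 is the array close to Control 2, where Star was 3.19. Nr5a1, also of the 9, was instead lowest on MEHP 3, at −1.63, −1.68, −2.39 and −1.54. Erythroid genes (4 summed) lay between 33.5 and 88.9 times with EHO and between 26.2 and 36.7 times in control testes. That sum leaves out Hbb-b1, the brightest of them, which was set aside on all control arrays. In tissue RNA more cells of a type and more RNA per cell cannot be told apart, and the part of these cells in the Wnt11, Wnt5b and Sfrp1 values was not tested.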

How the data were processed

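Spot intensity files from 20 1-colour Agilent arrays, made by the authors with Feature Extraction 9.5.3.1 per the file headers, were used; these deposited intensity values are background-subtracted within each array. The marks of outlier spots and of spots well above background are other columns of the same deposited files. The authors' deposited table gives a signed fold change, used as a score, and a p-value per listed probe. The log2 of the processed signal was set against each array's 75th percentile, outlier spots were set aside (539 to 551 on control arrays, 66 to 144 elsewhere) and repeated spots were averaged. Probes were kept where all arrays of some group showed them well above background (28129 of 41012), with the brightest probe per gene name (24223 genes). MEHP 1 and 2, closer than the sampling noise, were averaged as 1 sample. limma 3.58.1 in R 4.3.3 was fitted over 19 samples of 5 groups, with Benjamini-Hochberg adjustment within each comparison and a call at an adjusted p under 0.05. The precision is limited by the number of arrays. The script was tested on simulated data. The members and lists were chosen with earlier results of these data known. Array values were given for members named by a fixed rule (the best-known Wnt genes and those called or with the smallest p), and for others chosen after their values were seen, such as Sfrp4, Wnt2b, Wnt3a, Wnt8a and Wnt9b. Alternatives in scaling, background correction, filter, probes, samples and replicate block were computed. Replicate numbers did not pair the samples. Probe positions are those of the array files (rn4), and promoters are from RefSeq (GRCr8).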

Additional observations from a re-analysis of the deposited data

Results flagged for a closer look

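Among 104 groups of 4 arrays (members by group), 3 had an array farther from the others than Dixon's 95% critical value allows, and chance gives about 1 in 20 groups. Sfrp2 was −0.60 on EHO 4, with the other EHO arrays between −1.07 and −1.05. Wnt11 was 3.21 on TOTM 1, with the other TOTM arrays between 2.87 and 2.92. Wnt5a was −0.77 on TOTM 4, with the other TOTM arrays between −1.21 and −1.16.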

How the results depend on the processing

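Of 3846 log2 fold changes of named members recomputed under alternatives, 159 changed sign, and 0 of these were called in either setting. Lef1 with MEHP was 0.49 without MEHP 3 and 4, against −0.14 with all arrays, and Axin2 0.15, against −0.38. Counts of members are given with the share of all genes called in the same setting, which moved with them. The count of members called between EHO and control (11, 24.8%) became 19 with median scaling (34.4%), 7 with a filter on all 20 arrays (14.6%), 0 with the arrays of those 2 groups alone (0.0126%), 1 with weighted arrays (2.92%), 5 without the MEHP arrays (13.3%), 0 without EHO 1 and 2 (0.916%), 5 with a 2-fold minimum (12.1%) and 7 (15.8%) among members above background on each EHO and control array, an alternative added after seeing the data. Leaving out 1 array at a time gave 0 to 18: 1 without EHO 1 (3.34%), 0 without EHO 2 (4.25%), 17 without EHO 3 (41.5%), 18 without EHO 4 (43.6%), 1 without Control 1 (2.9%), 6 without Control 3 (15.6%) and 2 without Control 4 (4.85%). The higher and lower calls were 6 and 4 with normexp, 9 and 7 with quantile normalization, 15 and 4 with median scaling and 2 and 8 with the percentile over common probes. For EHO against DEHP (3, 6.62%) the counts were 5 with normexp (8.79%), 6 with quantile normalization (9.89%), 7 with median scaling (8.91%), 1 each with the percentile over common probes (6.14%), no filter (4.18%), those 2 groups alone (0.966%) and weighted arrays (3.91%), 0 without EHO 1 and 2 (1.31%), and 0 to 13 leaving out 1 array. For EHO against TOTM (9, 21.6%) they were 14 with median scaling (24.6%), 2 with those groups alone (3.81%), 3 with weighted arrays (9.26%), 1 without EHO 1 and 2 (3.96%), 3 with a 2-fold minimum (8.1%) and 1 to 17 leaving out 1 array. For EHO against MEHP (0, 0.285%) they were 3 with normexp (2.4%), 2 with quantile normalization (1.36%), 3 with weighted arrays (5.31%) and 0 to 7 leaving out 1 array. Weighted arrays gave 9 for MEHP against control (15.6%), 3 for MEHP against DEHP (7.7%) and 15 for TOTM against MEHP (27.7%), each reported as 0. Without MEHP 3 and 4, MEHP against control gave 1 (0.586%), and without Control 2 and MEHP 3 (added after seeing the data) MEHP against DEHP gave 1 (0.817%). The cause of these shifts in count was not tested. Slide could not be fitted as a block, since each group has its own.

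Same-numbered samples had correlations of their deviations from −0.68 to 0.49 (median −0.05), and 3 of 20 samples correlated best with their own number. With the replicate number as a block the counts were 8 for EHO against control (15.9%), 1 for EHO against DEHP (5.11%) and 3 for EHO against TOTM (15.9%).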
